A study of Mus musculus with 4 samples.

Results

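The BCL-2 family genes described here are 10 genes that set the threshold for mitochondrial apoptosis. They were chosen by name: Bcl2, Bcl2l1, Mcl1, Bax, Bak1, Bcl2l11, Bad, Bid, Pmaip1 and Bbc3. They are 10 of 22367 protein-coding genes in the GENCODE vM1 annotation of the mouse mm9 genome, and all 10 are among the 12186 whose promoters held 50 or more reads and were compared. The measurement was chromatin immunoprecipitation sequencing (ChIP-seq) with an antibody labelled H3K4, that is, signal for a modification at lysine 4 of histone H3, in splenic B cells of PA1-KO mice and of PA1-WT mice, called WT here. There was 1 library of each genotype. The protein PA1 binds PTIP and, through it, the complex of the MLL3 and MLL4 enzymes that methylate H3K4. The comparison asks what the loss of PA1 does to histone marks in activated B cells. The mice were 6 to 14 weeks old. Both groups had been depleted of CD43-bearing cells and cultured for 2 days in 25 μg/ml LPS, with either anti-IgD dextran at 2.5 ng/ml or IL-4 at 5 ng/ml. The labels give neither the methylation state of H3K4 nor which of those additions these cultures received, and they name no allele, Cre driver, strain or number of animals. The series also has a pair of LPS-dextran samples, not analysed here.

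Proteins of this family meet at the outer membrane of the mitochondrion. BCL-2, BCL-XL (from Bcl2l1) and MCL-1 hold the effectors BAX and BAK (from Bak1) in check, and BH3-only proteins such as BIM (from Bcl2l11), BAD, BID, NOXA (from Pmaip1) and PUMA (from Bbc3) bind the protectors or the effectors when a cell is stressed. Activated effectors open the membrane, cytochrome c escapes and caspases are switched on. In B cells, MCL-1 and BCL-XL are known for keeping activated cells alive, and BIM for removing autoreactive cells and ending responses. Methylated H3K4 marks promoters and enhancers, and the trimethylated form flanks the start sites of active genes.

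No promoter of the 10 genes differed between the libraries by 1.5-fold with an interval that excluded 1. The count was 0 of 10 higher and 0 of 10 lower in the PA1-KO library, where 0.665% of all compared promoters were higher and 4.9% lower. The median log2 ratio of the 10 was -0.01, and that of all compared promoters was 0.00. Smaller differences were seen at 3 genes. Bcl2l1, counted at a start site inside the gene, was higher in PA1-KO, at 1.24 times WT. Bax and Bbc3 were lower, at 0.824 and 0.753. With background reads as the scale, described next, Bcl2l1 was at 0.996. At any size, intervals lay above 1 for 1 of the 10 genes, against 10.1% of all promoters, and below 1 for 2 of the 10, against 11.4%. All ratios are PA1-KO over WT after scaling by TMM, a trimmed mean of log ratios over promoters, with 95% exact binomial intervals that cover counting error only. As each genotype has a single library, the difference has no replicate check and genotypes could not be tested. In a bulk library fewer marked cells and less mark per cell cannot be told apart.

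The scaling sets where the ratio of 1 lies. Relative to reads in the background, outside promoters and enriched islands, the median log2 ratio of all promoters shifted by -0.31, all 10 genes were below 1, and 0 had an interval above 1 and 8 an interval below it, against 0.402% and 56.2% of all promoters. Bax at 0.664 and Bbc3 at 0.607 passed the 1.5-fold threshold. On that scale 2049 of the 12186 promoters (16.8%) were counted as lower and 17 (0.14%) as higher, against 597 and 81 with TMM.

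The PA1-KO library held 5259995 reads on nuclear chromosomes and the WT library 5539475, of which 24.5% and 21.4% were background reads. The promoter of PA1 itself (annotated as 2900092E17Rik) held 114 PA1-KO and 261 WT reads, a ratio of 0.498 (0.396 to 0.624). Which part of PA1 was removed is not in the labels, so this value does not check the genotype. The tissue label was met by 6 of 6 B cell markers, with 376 to 570 PA1-KO and 385 to 550 WT reads at their promoters. The 5 T and NK cell markers had 0 to 2 reads in each library. Of 4 myeloid markers, Csf1r had 0 and 0 reads and Lyz2 had 1 and 3, while Cebpa had 57 and 92 and Itgam 35 and 27. Of 3 erythroid markers Klf1 had the most, with 75 and 88. The part of such cells in the results below was not tested.

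**Figure D1:**
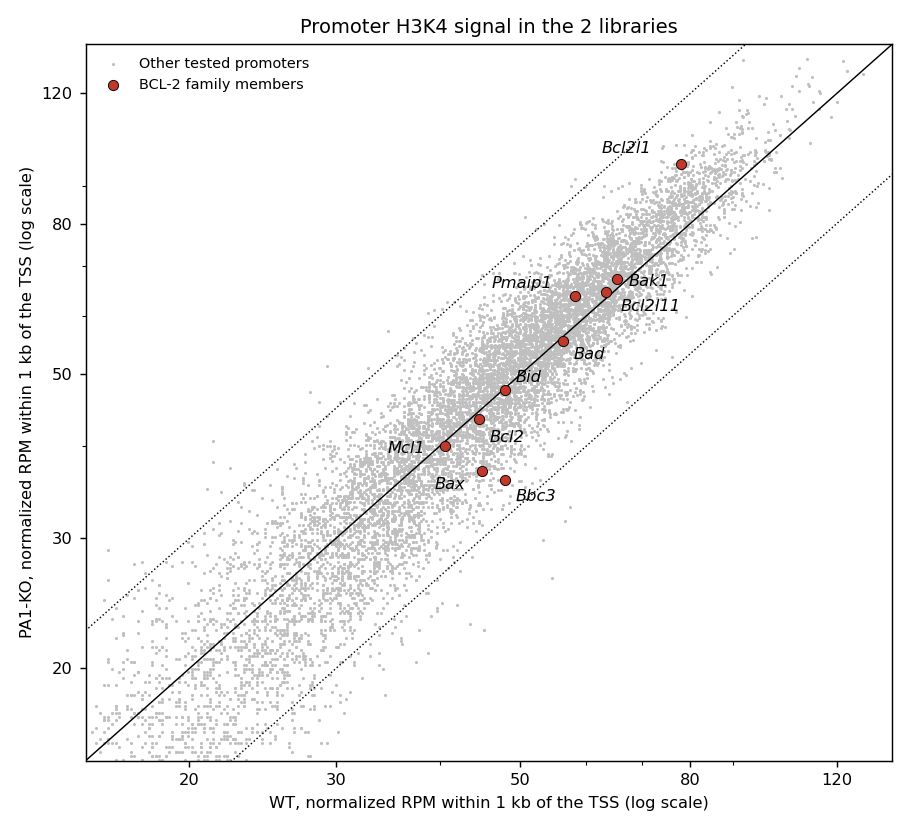
Promoter H3K4 signal of the 10 genes (red) and all other compared promoters (grey), as normalized RPM (scaled reads per 1000000 nuclear reads) within 1 kb of the TSS, PA1-KO on the vertical and WT on the horizontal axis, both logarithmic. The solid line marks equal signal and the dotted lines 1.5-fold differences. All 10 genes lie between the dotted lines, and the weakest promoters lie beyond the axes. Bcl2l1 at 96.4 and 78.0, counted at a TSS inside the gene, is the strongest.

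Signal was counted within 1 kb of each annotated transcription start site (TSS), after moving the 5′ end of each read 75 bp into its fragment, and the TSS with the most reads stood for the gene. Levels are normalized RPM, the scaled reads per 1000000 nuclear reads in that window, which is the same length for every gene. Among the protectors, Bcl2, the founding member, starts on the minus strand of chromosome 1 at 108610851. Its promoter held 220 reads in PA1-KO and 257 in WT, or 43.5 and 44.6 normalized RPM, a ratio of 0.977 (0.812 to 1.17). The Mcl1 promoter (chromosome 3, plus strand, TSS 95462643) held 202 PA1-KO and 234 WT reads, or 40.0 and 40.6 normalized RPM, a ratio of 0.985 (0.812 to 1.19). Within 1 kb of the TSS both protectors were thus near the middle of all promoters in level. With TMM scaling they did not differ there between the libraries beyond counting error. With background scaling Bcl2 was at 0.788 (0.655 to 0.947) and Mcl1 at 0.794 (0.655 to 0.963). Both genes held more reads from 1 to 5 kb downstream, as given below. With a window of 2 kb and TMM scaling, Bcl2 was at 0.907 (0.795 to 1.03) and Mcl1 at 1.17 (1.04 to 1.31). From 5 kb upstream to 5 kb downstream Mcl1 was at 1.22 (1.12 to 1.32), or 0.981 (0.903 to 1.06) with background scaling.

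At its TSS with the most reads, Bcl2l1 had the strongest signal of the 10 genes and the highest ratio. It encodes BCL-XL and lies on the minus strand of chromosome 2. The window around its TSS at 152654271, the start of an internal processed transcript named Bcl2l1-008, held 487 PA1-KO and 450 WT reads, or 96.4 and 78.0 normalized RPM, a ratio of 1.24 (1.08 to 1.41). Its mean level exceeded that of 97.7% of compared promoters, and its ratio that of 93.5%. The difference was not seen at the most upstream start of the gene. At the most upstream TSS, 152657464, a protein-coding start, there were 150 PA1-KO and 191 WT reads, a ratio of 0.896 (0.719 to 1.12). Its level was 29.7 normalized RPM in PA1-KO and 33.1 in WT, below the medians of all compared promoters, 42.6 and 42.2. Set against the internal TSS within the same libraries, the ratio at the most upstream TSS was 0.726 (0.561 to 0.938), a contrast that no scaling of the libraries can alter. The trends with GC content and level, described below, were not removed from this contrast. The ratio at the 8 TSSs between the internal and the most upstream one ran from 0.894 to 1.06, and each interval included 1. Those from 152656848 to 152656354 did not differ from the internal TSS beyond counting error. Set against it, their ratios ran from 0.827 to 0.836, and each interval included 1. The window of the TSS at 152656046 shares reads with that of the internal one. With TMM scaling the higher signal in PA1-KO was thus at the internal TSS and not at the outermost one. It was also seen from 1 to 5 kb downstream of the internal TSS, at 1.42 (1.19 to 1.69). The ratio at the internal TSS was 0.996 with background scaling and 1.06 (0.929 to 1.21) with the trends of GC content and level removed.

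The effectors differed from each other in level at the TSSs that stood for them. Bak1 (chromosome 17, minus strand, TSS 27165523) held 340 PA1-KO and 377 WT reads, or 67.3 and 65.4 normalized RPM, a ratio of 1.03 (0.886 to 1.19). Its window also contains a TSS of the neighbouring gene Ggnbp1, so part of these reads may belong to that promoter. At the outermost Bak1 start, 27165954, a protein-coding one, there were 202 PA1-KO and 243 WT reads. That is 40.0 and 42.1 normalized RPM, near the level of Bax, and a ratio of 0.949 (0.783 to 1.15). Bax (chromosome 7, minus strand, TSS 52722145) held 187 PA1-KO and 259 WT reads, or 37.0 and 44.9 normalized RPM, a ratio of 0.824 (0.679 to 0.998). This interval barely excluded 1, and at the other Bax TSS, 52722268, it did not: 176 PA1-KO and 232 WT reads gave 0.866 (0.708 to 1.06). BAX and BAK can replace each other in opening the mitochondrial membrane, and the difference between their promoter ratios was not tested.

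Among the BH3-only genes, 4 of 5 had intervals that included 1 with TMM scaling. Bcl2l11 (chromosome 2, plus strand, TSS 127953311), which encodes BIM, held 327 PA1-KO and 365 WT reads, or 64.7 and 63.3 normalized RPM, a ratio of 1.02 (0.878 to 1.19). That TSS is the start of a processed transcript inside the gene. Bad (chromosome 19, plus strand, TSS 7025257), whose protein is governed by phosphorylation downstream of growth factors, held 280 PA1-KO and 324 WT reads, a ratio of 0.986 (0.837 to 1.16). That TSS is a protein-coding start inside the gene. The outermost Bad start, 7016351, also protein-coding, held 233 PA1-KO and 270 WT reads, a ratio of 0.985 (0.823 to 1.18). Bid (chromosome 6, minus strand, TSS 120866821), whose protein is cleaved by caspase 8, held 241 PA1-KO and 276 WT reads, a ratio of 0.997 (0.835 to 1.19). The normalized RPM of Bad was 55.4 in PA1-KO and 56.2 in WT, and that of Bid 47.7 and 47.9. With TMM scaling Bcl2l11, Bad and Bid were thus nearly even between the libraries. With background scaling Bcl2l11 was at 0.824 (0.708 to 0.960), Bad at 0.795 (0.675 to 0.936) and Bid at 0.804 (0.673 to 0.959). Pmaip1 (chromosome 18, plus strand, TSS 66618258), which encodes the p53 target NOXA, held 323 PA1-KO and 335 WT reads, or 63.9 and 58.1 normalized RPM, a ratio of 1.10 (0.941 to 1.29).

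Bbc3 had the lowest ratio of the 10 genes. It encodes PUMA, a p53 target that binds all the main protectors, and lies on the plus strand of chromosome 7. At its TSS at 16895804 there were 182 PA1-KO and 276 WT reads, or 36.0 and 47.9 normalized RPM, a ratio of 0.753 (0.621 to 0.911), and 10.6% of compared promoters had a lower one. The other starts of the gene were also lower in PA1-KO. The upstream TSS at 16894965 held 168 PA1-KO and 241 WT reads, a ratio of 0.796 (0.649 to 0.973), and the downstream TSS at 16898866 held 126 and 190, a ratio of 0.757 (0.599 to 0.953). The windows of the first pair overlap and so share reads. From 5 kb upstream to 5 kb downstream Bbc3 held 514 PA1-KO and 771 WT reads, a ratio of 0.761 (0.679 to 0.852). Most of these reads lay around and downstream of the TSS, and from 5 to 1 kb upstream the interval included 1.

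**Figure D2:**
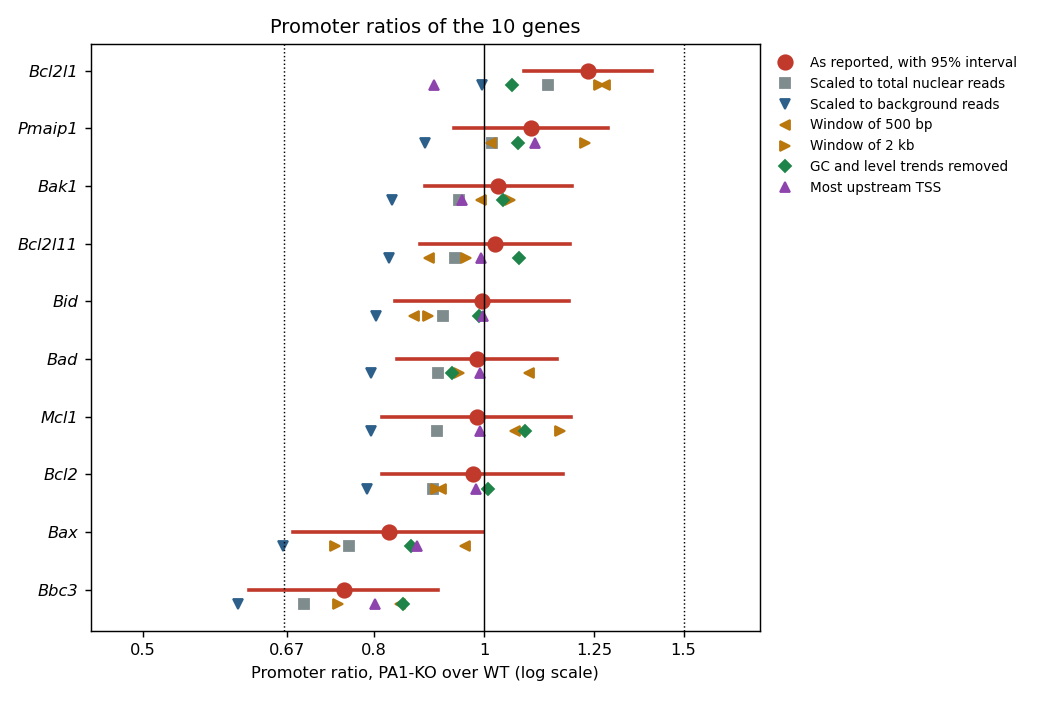
Promoter ratio of PA1-KO over WT for each of the 10 genes, on a logarithmic axis, under the main scaling (filled points with 95% counting intervals) and under the alternatives named in the legend. Bax and Bbc3 stay below 1 throughout, Bcl2l1 moves between 0.903 and 1.28, and with background scaling all 10 genes are below 1.

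Of the 3 genes with intervals away from 1, Bcl2l1 and Bbc3 stood at opposite ends in base composition. Across all promoters the ratio fell with GC content over the 2 kb window, with a median of 1.21 under 45% GC and 0.814 at 65% or more. Bcl2l1 had the lowest GC content of the 10, at 47.9%, and the highest ratio; in its band of 45 to 50% GC, 24% of promoters had intervals above 1. Bbc3 had the highest, at 65.2%, and the lowest ratio; in its band 40% had intervals below 1. Bax was at 56.9%, in a band where 15.2% did. With the trends of the ratio with GC content and with level both removed, the ratio was 1.06 (0.929 to 1.21) for Bcl2l1, 0.862 (0.710 to 1.04) for Bax and 0.848 (0.699 to 1.03) for Bbc3. The direction was kept at all 3, but 0 of the 10 genes then had an interval above 1 and 0 below, against 4.9% and 4.78% of all promoters.

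The sequences before the outermost start sites of those 3 genes are given to show their base composition and motifs. At these starts, which are not the ones that stood for the genes, the interval of the ratio excluded 1 at Bbc3 and included it at Bcl2l1 and Bax. Each is the NCBIM37 (mm9) sequence of 250 bases, 5′ to 3′ in the direction of the gene, ending just before the most upstream TSS. Capitals mark GC boxes (GGGCGG, the motif bound by SP1) and E-boxes (CACGTG, the motif of MYC and USF proteins), found on either strand.
Bcl2l1, chr2:152657465-152657714, minus strand: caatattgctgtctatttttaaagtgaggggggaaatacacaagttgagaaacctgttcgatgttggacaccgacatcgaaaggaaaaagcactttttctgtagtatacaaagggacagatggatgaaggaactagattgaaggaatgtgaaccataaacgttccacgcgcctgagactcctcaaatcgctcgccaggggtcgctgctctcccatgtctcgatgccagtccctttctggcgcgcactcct
Bax, chr7:52722269-52722518, minus strand: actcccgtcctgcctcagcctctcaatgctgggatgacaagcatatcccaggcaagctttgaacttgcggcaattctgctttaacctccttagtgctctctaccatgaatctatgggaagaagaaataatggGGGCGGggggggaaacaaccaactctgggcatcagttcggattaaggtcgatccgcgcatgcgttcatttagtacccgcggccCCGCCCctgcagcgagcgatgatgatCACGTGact
Bbc3, chr7:16894715-16894964, plus strand: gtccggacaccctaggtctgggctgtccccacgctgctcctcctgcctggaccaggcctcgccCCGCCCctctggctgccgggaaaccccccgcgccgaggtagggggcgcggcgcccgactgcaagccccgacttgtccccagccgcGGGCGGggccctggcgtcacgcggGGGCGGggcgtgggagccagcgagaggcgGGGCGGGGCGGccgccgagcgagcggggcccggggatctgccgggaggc
The Bbc3 sequence holds 5 GC boxes, of which the last pair overlap in a single run of capitals, and 0 E-boxes. The Bax sequence holds 2 GC boxes and 1 E-box, and the Bcl2l1 sequence neither motif. Among the 12186 genes compared, 57.5% have a GC box in this stretch and 8.49% an E-box. In the window of 250 bases before to 50 after the TSS that stood for each gene, 7 of the 10 have a GC box, against 67.5% of all, 4 have a CCAAT box, against 35.5%, and 0 have the TATA box TATAAA, against 5.12%. The E-box was found there in 2, Bax with 3 matches and Bbc3 with 1, against 9.94% of all. A match is a description of the letters and not evidence of binding.

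**Figure D3:**
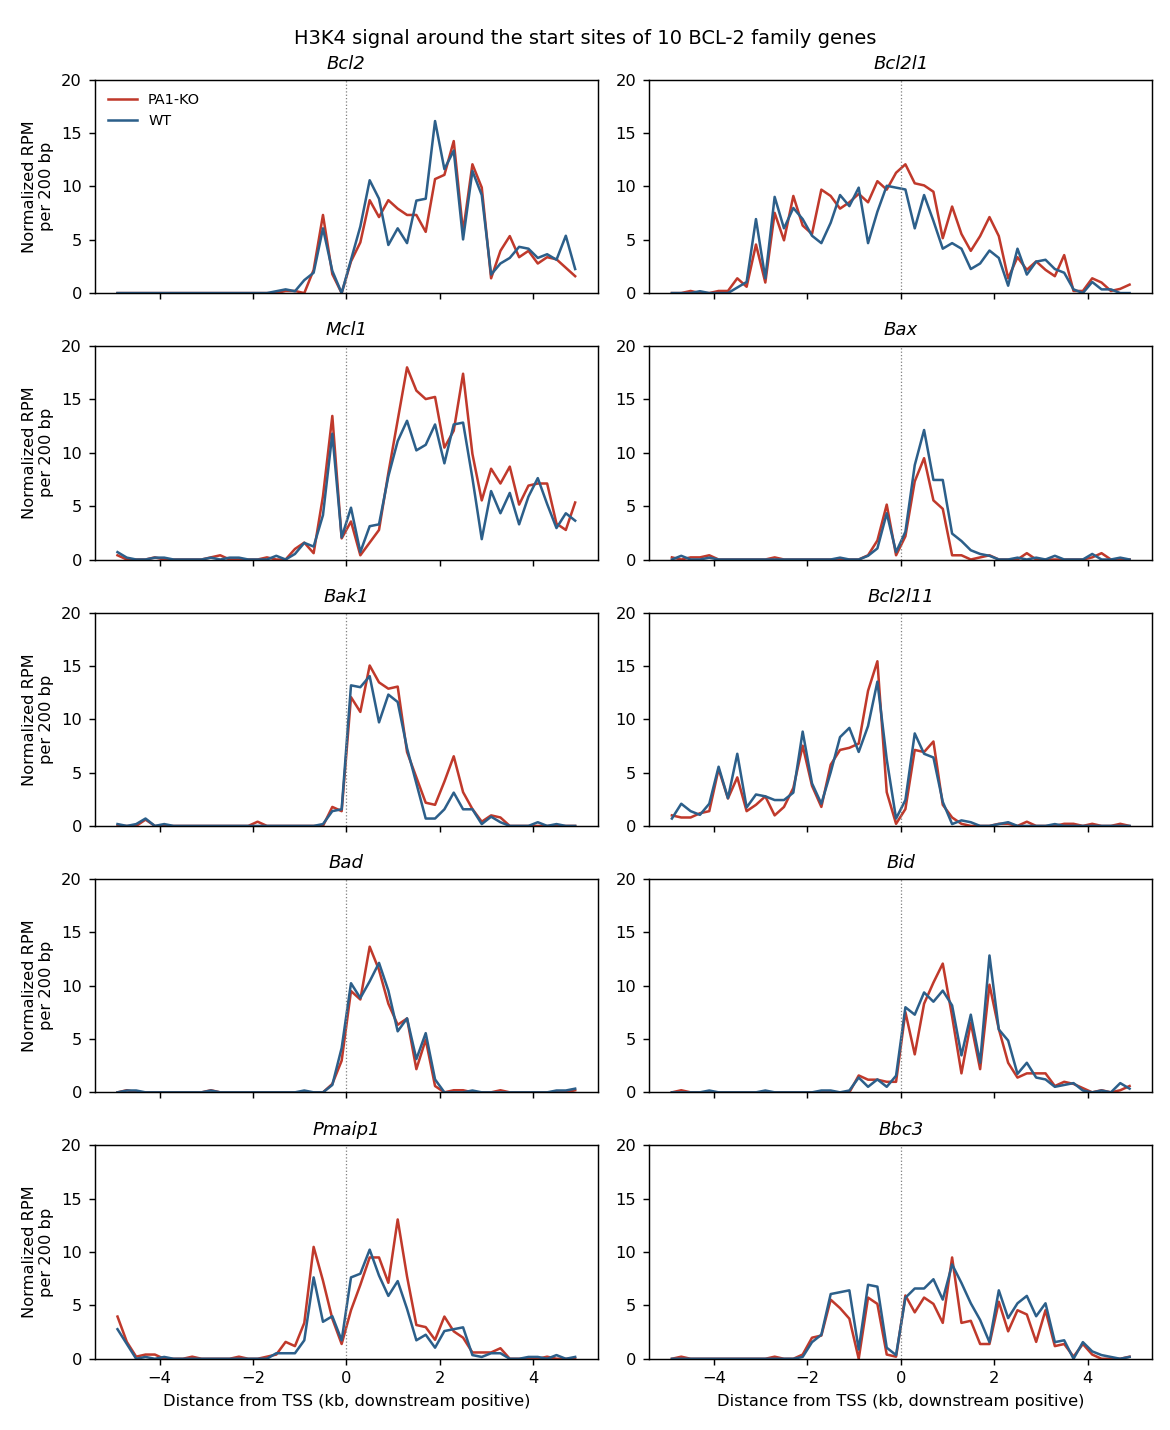
H3K4 signal in 200 bp bins from 5 kb upstream to 5 kb downstream of the start site of each of the 10 genes, as normalized RPM per bin, with PA1-KO in red and WT in blue and the TSS at the dotted line. The libraries follow the same outline at each gene, with signal mostly downstream of the TSS except at Bcl2l11 and Bcl2l1. At both, and at Bad, the TSS shown lies inside the gene, downstream of protein-coding starts.

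Within 5 kb of the TSS, the outline of the signal was similar in the 2 libraries. Across the 50 bins of 200 bp, Pearson's r between PA1-KO and WT ran from 0.918 at Bcl2l1 to 0.985 at Bad, as a description over neighbouring bins of the same libraries. After the 75 bp shift, the bin just before the TSS was nearly empty at 4 of the 10 genes. The share of all compared promoters with such a bin was not counted. It held 0 and 0 reads at Bcl2, 2 PA1-KO and 4 WT reads at Bax, 1 and 4 at Bcl2l11 and 1 and 2 at Bbc3. Without the shift it held 2 and 2 at Bcl2, 4 and 5 at Bax, 2 and 10 at Bcl2l11 and 8 and 7 at Bbc3. With the shift, at Bid it held 5 and 9 reads, at Bak1 7 and 9, at Pmaip1 7 and 10, at Mcl1 10 and 12 and at Bad 15 and 24. At Bcl2l1, whose TSS lies inside the gene, it held 57 and 57. The TSSs used at Bcl2l11 and Bad also lie inside their genes. The domains differed greatly in width. Promoter islands of Bcl2, Bcl2l1, Mcl1, Bcl2l11 and Bid were 8200, 7200, 7000, 6000 and 4200 bp wide and exceeded those of 90% of compared promoters, whose median was 2000 bp. Those of Pmaip1 and Bbc3 were 4000 bp each, that of Bak1 3000, that of Bad 2200 and that of Bax 2000 bp. The Bad width is that of the island at its internal TSS. A separate island at the outermost Bad start was 2000 bp wide.

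From 1 to 5 kb downstream of the TSS, 7 genes differed between the libraries beyond counting error with TMM scaling, against 3 around it. Of the 9 genes with 50 or more reads there, 4 had intervals above 1, against 25.6% of all such promoters, and 3 had intervals below 1, against 7.49%. Past 1.5-fold there were 0 higher, against 10.9%, and 1 lower, against 4.28%. Mcl1 held 984 PA1-KO and 875 WT reads in this stretch, a ratio of 1.28 (1.17 to 1.41). Pmaip1 held 203 and 160, a ratio of 1.45 (1.17 to 1.79), and Bak1 234 and 196, a ratio of 1.36 (1.12 to 1.66). Relative to their own centre, these 3 genes had more downstream signal in PA1-KO than in WT, by 1.30 (1.05 to 1.62) at Mcl1, 1.32 (1.01 to 1.72) at Pmaip1 and 1.32 (1.03 to 1.70) at Bak1. Such a relative excess, which does not depend on the scaling, was found at 16% of the 5793 promoters with 50 or more reads downstream, and the opposite at 4.11%. The trends with GC content and level were not removed from these or the other contrasts within the libraries. With the GC trend removed, the Mcl1 promoter ratio was 1.11 (0.915 to 1.35).

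Bcl2l1 was also higher downstream, with 287 PA1-KO and 231 WT reads and a ratio of 1.42 (1.19 to 1.69), but its excess over its own centre, 1.15 (0.920 to 1.43), was within counting error. Bax showed the opposite of Mcl1: 14 PA1-KO and 42 WT reads gave a ratio of 0.380 (0.192 to 0.711), and relative to its centre 0.462 (0.226 to 0.894). It was the 1 member past 1.5-fold here, on few reads. Bbc3, with 236 and 364 reads, had a ratio of 0.740 (0.625 to 0.874), the same as at its centre within counting error, and Bid, with 237 and 323, had 0.837 (0.705 to 0.993). Bcl2, at 0.956 (0.858 to 1.06) from 623 and 744 reads, and Bad, at 0.930 (0.716 to 1.21) from 110 and 135, did not differ beyond counting error with TMM scaling. Scaled to background, the downstream ratio was 1.03 at Mcl1, 1.10 at Bak1, 1.17 at Pmaip1 and 1.14 at Bcl2l1, and each of these intervals included 1. The other 5 genes had intervals below 1 on that scale, among them Bcl2 at 0.771 (0.692 to 0.858) and Bad at 0.75 (0.578 to 0.972). The counts were thus 0 above and 5 below, against 5.78% and 24.2% of all such promoters.

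At Bcl2l11 more signal lay upstream of the TSS that stood for the gene than downstream of it. From 5 to 1 kb upstream, 320 PA1-KO and 433 WT reads gave a ratio of 0.843 (0.728 to 0.977), against 13 and 10 reads downstream. That TSS is the start of an internal processed transcript. Protein-coding starts of the gene, from 127951774, lie within the upstream stretch, so its reads include those of a promoter of the gene itself. Within 1 kb of the TSS at 127951774 there were 314 PA1-KO and 363 WT reads, a ratio of 0.987 (0.846 to 1.15). Upstream of Pmaip1 52 PA1-KO and 35 WT reads gave a ratio of 1.70 (1.08 to 2.68). Part of these reads lay at the far end of the stretch, in a separate island at chr18:66613001-66613600. That whole island held 44 PA1-KO and 32 WT reads, a ratio of 1.57 (0.973 to 2.56). Pmaip1 was the 1 higher of 4 genes with 50 or more upstream reads, where 8.45% of all such promoters were past 1.5-fold. None were lower, against 3.45%. Pmaip1 also had the 1 upstream interval above 1 (18.7% of all), and Bcl2l11 the 1 below (5.7%). Bcl2l1 upstream was at 1.04 (0.901 to 1.19) and Bbc3 at 0.836 (0.636 to 1.10). Relative to the centre, 0 of these 4 differed beyond counting error in either direction, against 11.6% above and 3.88% below among all. Scaled to background, Pmaip1 upstream was at 1.37 (0.874 to 2.16), and Bcl2l1 at 0.836 (0.727 to 0.962), Bcl2l11 at 0.680 (0.587 to 0.788) and Bbc3 at 0.674 (0.513 to 0.884) were below 1. That made 0 of 4 above and 3 below, against 3.24% and 26% of all such promoters.

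**Figure D4:**
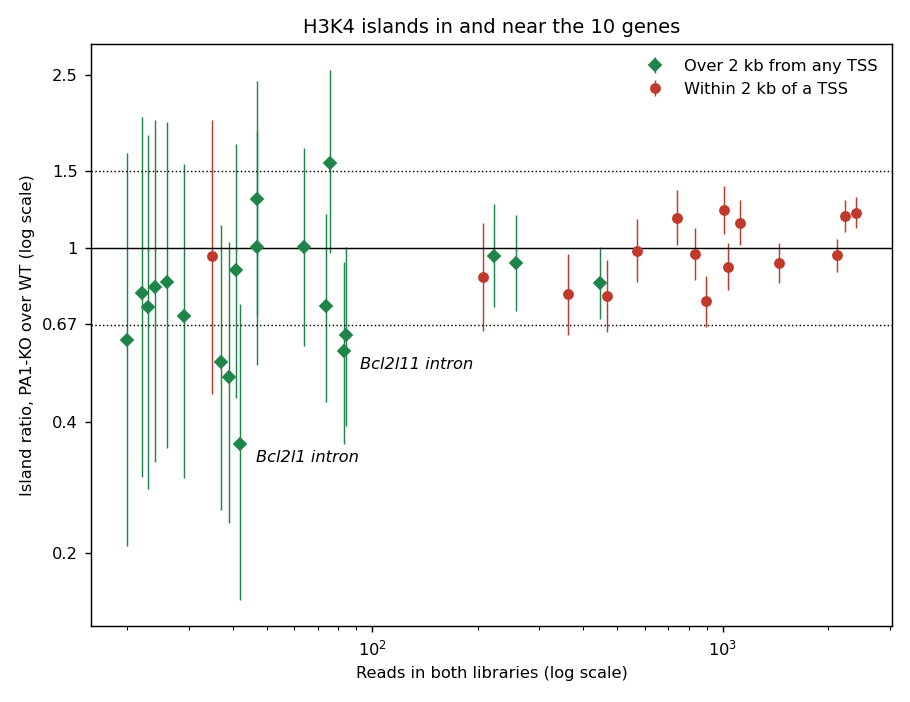
Ratio of PA1-KO over WT for the 35 islands in and within 10 kb of the 10 genes, against the reads in both libraries, both axes logarithmic, with near-TSS islands and islands over 2 kb from any TSS marked apart and vertical bars for the 95% counting intervals. The dotted lines mark 1.5-fold differences, and the lowest point is an intronic island of Bcl2l1 at 0.357.

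Islands of enriched signal, called on both libraries together, placed 35 in or within 10 kb of the genes, of which 20 were over 2 kb from any annotated TSS. Of those 20, 0 were higher and 2 were lower by 1.5-fold, where 5.76% and 5.53% of all 10584 such islands were. Both lower islands were intronic. The first, chr2:152614601-152615400 in Bcl2l1, held 10 PA1-KO and 32 WT reads, a ratio of 0.357 (0.156 to 0.744). Relative to the internal TSS that stood for Bcl2l1, itself at 1.24, it was at 0.289 (0.125 to 0.611). The other 3 distal islands of Bcl2l1 had ratios of 0.815, 0.790 and 0.507, and each interval included 1. The second, chr2:127978201-127979800 in Bcl2l11, held 28 PA1-KO and 55 WT reads, a ratio of 0.581 (0.355 to 0.932). Relative to the internal TSS that stood for Bcl2l11, it was at 0.568 (0.339 to 0.937).

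The median ratio of the 20 distal islands was 0.803, against 0.984 over all such islands. Of the 20, 16 had ratios below 1 and 4 above, and the share of all such islands below 1 was not counted. Together the 20 held 723 PA1-KO and 983 WT reads. Several share a gene, with 8 in Bcl2. Most hold few reads and 18 of the 20 were not past the threshold, so this is a description of the list. The 15 islands near a TSS had a median of 0.963, against 1.01 over all such islands, with 10 below 1 and 5 above. By 1.5-fold 0 were higher and 0 lower, against 1.58% and 5.29% of all such islands. Bcl2, a gene with a very long intron, had 9 islands in all. Its promoter island held 969 PA1-KO and 1148 WT reads, a ratio of 0.963 (0.884 to 1.05), and its intronic island at chr1:108465601-108467400 held 102 and 121, a ratio of 0.962 (0.732 to 1.26). The promoter island of Mcl1 ran over the whole gene and held 1233 and 1167 reads, a ratio of 1.21 (1.11 to 1.31). An island downstream of Mcl1, chr3:95476201-95479000, held 189 and 259 reads, a ratio of 0.833 (0.687 to 1.01).

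Bax and Bbc3 share chromosome 7 with PA1, at 81.4 and 117 Mb from it. In the 10 Mb block of Bbc3 there were 8 positions where the PA1-KO library alone mismatched the reference and in that of Bax 3, against 0 where the WT library alone did. Around Pmaip1 there were 4 in WT alone, and around the other 7 genes 0 in either. The block of Bcl2 had only 12120 bases compared, and the other blocks 57251 or more. On all of chromosome 7 there were 49 in PA1-KO alone and 1 in WT alone. Over all chromosomes there were 82 in PA1-KO alone and 122 in WT alone, with 41 in WT alone on chromosome 6. Promoters of chromosome 7 had a median log2 ratio of -0.02 and those of the other chromosomes 0.00, with 4.38% and 4.94% counted as lower. The part of these sequence differences in the lower signal at Bax and Bbc3 was not tested.

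Of 39 other genes of the pathway, 34 were compared, and 0 were higher and 3 lower, against 0.665% and 4.9% of all promoters. Their median log2 ratio was 0.03. The 3 lower ones were Bok, a further effector of the family, with 40 PA1-KO and 78 WT reads and a ratio of 0.585 (0.389 to 0.868), Endog, a mitochondrial nuclease, with 98 and 186 reads and 0.601 (0.466 to 0.772), and Trp73, the p53 relative p73, with 93 and 175 reads and 0.607 (0.466 to 0.784). With both trends removed Endog remained past the threshold at 0.656, while Bok at 0.761 and Trp73 at 0.733 did not. The highest of the further family members was Bcl2a1d, a protector of activated lymphocytes, at 1.24, but its near-identical copies make the placing of its reads uncertain. Highest of the genes downstream of the mitochondrion was Aifm1 at 1.08, and of the regulators Bclaf1 at 1.16.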

How the data were processed

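The deposited files list mapped reads, with coordinates, strand and a match descriptor (unit: other) on each line, and no deposited score or normalized value was used. The submitters' processing notes name mm9 and SICER and give no roles or versions. No aligner is named in the sources used here. Each line spans 25 bases, and since a position and strand occurs at most once per file, duplicates had been taken out before deposit. Protocols in the labels give native MNase-digested chromatin, 18 PCR cycles, fragments near 220 bp and 36 sequencing cycles.

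For each annotated TSS, reads within 1 kb were counted after a 75 bp shift, and the TSS with the highest combined count stood for the gene. Libraries were scaled by TMM over promoters with 50 or more reads (30% of ratios and 5% of levels trimmed; log2 factor -0.12). Ratios have exact conditional binomial (Clopper-Pearson) 95% intervals. With 1 library of each genotype, intervals cover counting error only. Higher and lower promoters are those with a ratio past 1.5-fold and an interval that excludes 1. The counting and scaling were tested on simulated data, but the outcome is not given here and no result rests on it. Islands were runs of 200 bp windows with a Poisson probability under 1e-05 (9 or more reads), bridging gaps of at most 200 bp, with at least 20 reads. Mismatch positions needed 3 or more reads in a library. Trends were fitted by lowess with a span of 0.3. Motifs were searched on both strands and overlapping matches were counted separately. Python 3.11.15, numpy 2.4.6, scipy 1.17.1, pandas 2.3.3, statsmodels 0.14.6 and matplotlib 3.10.9 were used. The 10 genes are all described. Of the other pathway genes, the highest and lowest of each list and any past the threshold are named. The genes and lists were chosen with earlier results of these data known. Alternatives are listed in the closing section.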

Additional observations from a re-analysis of the deposited data

How the results depend on the processing

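Each promoter ratio of the 10 genes was computed again under 12 alternatives. Of these values, 108 stayed within the main counting interval and 12 moved out of it. Of these 12, 10 came with background scaling, and the others were Bcl2l1 with both trends removed, at 1.06, and at its most upstream TSS, at 0.903. Over the alternatives Bbc3 ran from 0.607 to 0.885 and Bax from 0.664 to 0.963, while Bcl2l1 was below 1 at its most upstream TSS and with background scaling, at 0.996. With background scaling 2 of the 10 genes were counted as lower. Among all promoters, 81 higher and 597 lower became 40 and 948 scaled to total nuclear reads, 17 and 2049 scaled to background, 239 and 171 with the level trend removed, and 144 and 135 with both trends removed. The higher promoters numbered 140 with 500 bp windows, 131 with no minimum and 38 with the GC trend removed. The cause was not tested. No paired analysis was possible because each genotype has 1 library, and no replicate could be left out. Strain, culture and library differences cannot be told apart from genotype.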
